A study of Homo sapiens with 24 samples.

Results

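The comparison described here is the effect of CB-839 on RNA levels in irradiated SAS cells that carry wild-type (WT) NRF2. It rests on 6 of the 24 sequenced libraries: 3 from cells given vehicle and radiation and 3 from cells given CB-839 and radiation, chosen by the treatment and genotype that the labels give. SAS is a cell line from a human oral squamous cell carcinoma. WT cells received CB-839 at 0.1 µM or vehicle for 24 h and then x-rays at 4 Gy, and RNA was taken 24 h later. Whether the drug stayed on after radiation is not stated. For comparison, the CB-839 effect was also taken from unirradiated WT cells (3 untreated libraries and 3 with 0.1 µM CB-839 for 24 h). No pretreatment is given for the untreated libraries, so whether they received vehicle is not known. Irradiated cells with the E79Q form of NRF2 were used too (3 libraries with 4 Gy, 3 with 4 Gy and 0.1 µM CB-839). Their treatment and collection times were those of irradiated WT cells. The labels leave out how the E79Q line was made, whether it is 1 clone, and the time of RNA collection for unirradiated cells. The labels do not say whether the libraries of a group came from separate cultures, so p-values measure only the spread between these libraries, which may be technical.

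CB-839, or telaglenastat, blocks the mitochondrial conversion of glutamine into glutamate. Glutamate feeds the tricarboxylic acid cycle, is the amino donor for serine and other amino acids, and is a building block of glutathione. Cells short of amino acids usually raise translation of ATF4, a transcription factor that turns on amino acid transporters, serine synthesis and tRNA charging. NRF2, encoded by NFE2L2, turns on antioxidant and detoxifying genes unless KEAP1 holds it back, and the E79Q change lies in the part of NRF2 that KEAP1 binds.

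In all, 15956 genes were tested, with levels given as CPM (counts scaled to a common library size) and changes as log2 fold changes with their standard errors (SE). A gene was called when its edgeR quasi-likelihood p, adjusted over all tested genes, was under 0.05. With CB-839 added, 1520 genes (9.53%) were called in irradiated WT cells: 797 were higher (4.99% of those tested) and 723 lower (4.53%). The changes were small: the median absolute log2 change of called genes was 0.36, 328 of them exceeded 1.5-fold and 98 exceeded 2-fold. The median over all tested genes was -0.02. Called genes of higher RNA had a median GC content of 55.1% and those of lower RNA 43.8%, and the log2 change correlated with GC content across 15951 genes at r = 0.196. Library 1 of the drug group deviated from its group along GC content (r = 0.265 across genes), against -0.171 and -0.111 for the other two. With an offset for GC content and length in the model, 2255 genes were called, among them 1351 of the 1520. Without library 1 of the drug group 638 genes were called, and 878, 974 and 708 without library 1, 2 or 3 of the radiation-alone group.

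Promoters of 5 genes are shown because some stress and interferon genes among the results carry short motifs known for their regulators. Only promoters that hold a match were picked. In irradiated WT cells CHAC1 and ASNS were not called, and ATF3 was called lower with CB-839. The first 3 belong to ATF4 targets, with the letters TGATGNAA or their reverse complement in capitals, and the last 2 to interferon-induced IFIT genes, with GAAA, any 2 bases and GAAA again, or the reverse complement, in capitals. Each window runs from 250 bases before to 50 after a RefSeq start on GRCh38.p14: CHAC1 at chr15:40953221-40953520 (plus strand), ASNS at chr7:97872359-97872658 (minus strand), ATF3 at chr1:212565157-212565456, IFIT1 at chr10:89392373-89392672 and IFIT3 at chr10:89327747-89328046 (all plus strand).
CHAC1: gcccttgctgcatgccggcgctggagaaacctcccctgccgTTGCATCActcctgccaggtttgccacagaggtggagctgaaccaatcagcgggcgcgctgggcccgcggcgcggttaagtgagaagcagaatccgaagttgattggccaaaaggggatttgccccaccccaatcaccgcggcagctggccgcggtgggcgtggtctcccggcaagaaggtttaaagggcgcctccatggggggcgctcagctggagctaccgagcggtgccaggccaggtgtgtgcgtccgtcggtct
ASNS: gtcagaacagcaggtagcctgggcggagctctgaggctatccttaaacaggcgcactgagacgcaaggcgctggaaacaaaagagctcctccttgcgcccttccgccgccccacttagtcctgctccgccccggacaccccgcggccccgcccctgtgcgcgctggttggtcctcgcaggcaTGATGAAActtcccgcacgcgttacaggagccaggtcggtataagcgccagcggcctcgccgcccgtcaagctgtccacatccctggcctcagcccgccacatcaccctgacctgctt
ATF3: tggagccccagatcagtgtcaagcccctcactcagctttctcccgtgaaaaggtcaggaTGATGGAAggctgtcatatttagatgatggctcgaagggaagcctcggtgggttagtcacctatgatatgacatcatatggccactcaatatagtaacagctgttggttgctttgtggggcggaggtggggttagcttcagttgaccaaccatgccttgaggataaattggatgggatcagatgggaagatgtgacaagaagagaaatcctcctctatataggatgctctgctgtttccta
IFIT1: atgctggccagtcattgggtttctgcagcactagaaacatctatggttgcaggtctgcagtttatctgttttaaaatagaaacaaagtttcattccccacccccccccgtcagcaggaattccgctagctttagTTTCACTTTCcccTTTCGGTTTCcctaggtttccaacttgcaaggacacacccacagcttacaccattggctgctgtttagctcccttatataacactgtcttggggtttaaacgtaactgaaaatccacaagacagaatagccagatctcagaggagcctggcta
IFIT3: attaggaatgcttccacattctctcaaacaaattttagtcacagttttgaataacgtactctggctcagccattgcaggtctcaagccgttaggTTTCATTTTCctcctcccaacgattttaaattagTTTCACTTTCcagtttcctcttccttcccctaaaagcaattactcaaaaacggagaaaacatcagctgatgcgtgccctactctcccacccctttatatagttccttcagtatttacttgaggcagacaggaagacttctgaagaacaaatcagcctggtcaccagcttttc
Searched on both strands, TGATGNAA was in 1270 of 35116 RefSeq promoters of this length (3.62%) and in 6 of the 38 promoters found for the ATF4 and CHOP list (15.8%). The paired GAAA motif was in 1255 promoters (3.57%) and in 17 of the 26 found for the interferon list (65.4%). Promoters were found for 26 of 31 genes of the first list and 20 of 28 of the second. A match is a string of letters in this window and not a measured binding site.

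**Figure D1:**
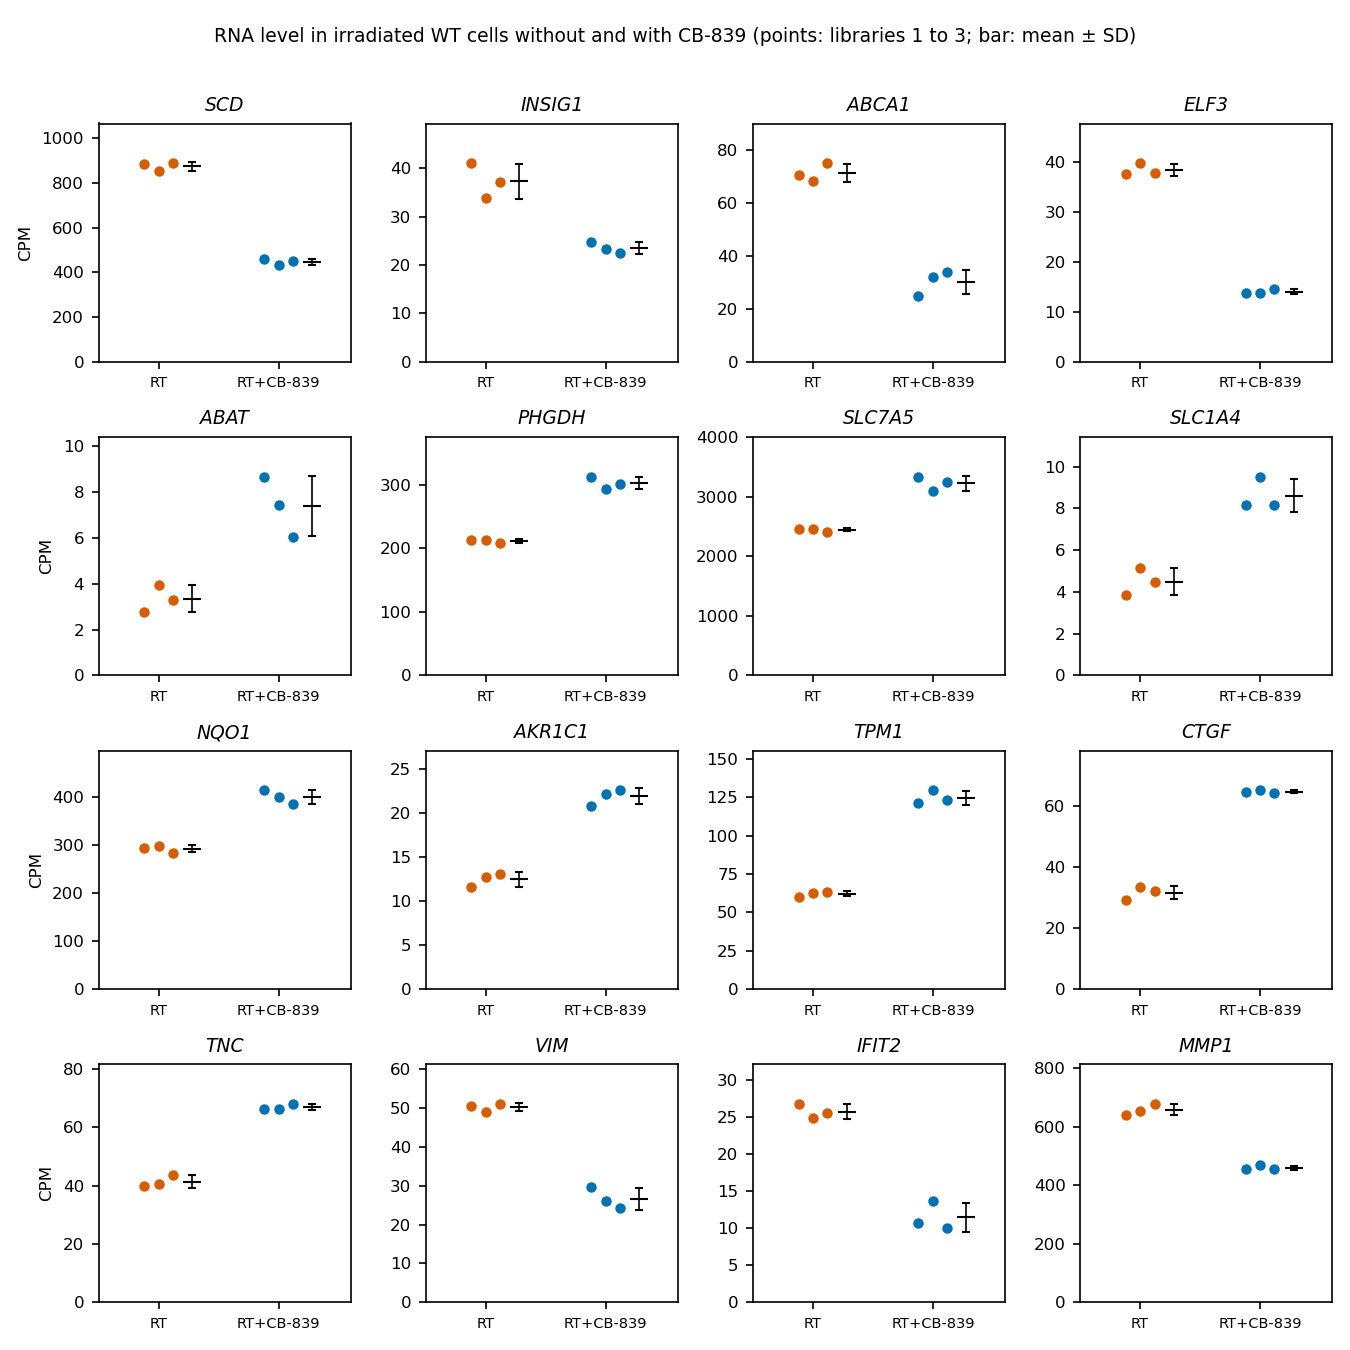
RNA level in CPM (linear axis from 0) of 16 genes in irradiated WT cells without (RT) and with CB-839; points are libraries 1 to 3 and the bar is the mean ± SD. The 2 groups do not overlap for any of the 16 genes shown, which the naming rule required for ABCA1, ELF3, ABAT, TPM1, CTGF and IFIT2.

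Of 24 tested enzymes that make or use glutamine or glutamate (27 listed), 6 rose (25%, against 4.99% over all genes) and 0 fell. Their median log2 change was 0.12. ABAT, which breaks down GABA (ENSG00000183044, chromosome 16, 8674565 to 8784575 on GRCh38), was at 2.79, 3.96 and 3.29 CPM without the drug and 8.67, 7.46 and 6.05 CPM with it (log2 change 1.14 ± 0.21, edgeR adjusted p = 6.55e-04). Every drug library lay above every radiation-alone library, as the rule for naming the largest rises required. PYCR1, which makes proline in mitochondria, rose from 33.6 ± 2.22 to 42.8 ± 1.21 CPM (mean ± SD, n = 3), and CTPS1, which uses glutamine to make CTP, rose by 0.21 on the log2 scale, a call that was lost without library 1 of the drug group (edgeR adjusted p = 0.0637).

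Serine synthesis and amino acid uptake rose at a few members each. PHGDH, the first enzyme of serine synthesis, stood at 212, 213 and 208 CPM with radiation alone and at 313, 294 and 301 CPM with the drug (1.43-fold, log2 change 0.52 ± 0.07, edgeR adjusted p = 8.10e-06). PSAT1, which takes the amino group of glutamate for the next step, went from 165 ± 1.03 to 198 ± 5.61 CPM (edgeR adjusted p = 7.25e-04). These were the only 2 of 15 tested serine, glycine and one-carbon enzymes that were called (13.3% higher, against 4.99% over all genes). Of 27 tested amino acid transporters (31 listed) 6 rose (22.2%, against 4.99% over all genes) and 1 fell (3.70%, against 4.53%). The median was 0.06. SLC7A5, the light chain of the exchanger that brings in leucine while glutamine leaves, was at 2459, 2462 and 2412 CPM without and 3334, 3093 and 3239 CPM with CB-839 (log2 change 0.40 ± 0.05, edgeR adjusted p = 2.52e-06). Its heavy chain partner SLC3A2 rose by 0.30 and the glutamine importer SLC1A5 by 0.33 on the log2 scale, so that both chains of the exchanger rose. SLC1A4, a neutral amino acid carrier singled out after its values were seen, was at 3.85, 5.13 and 4.48 CPM and 8.15, 9.52 and 8.17 CPM (log2 change 0.94 ± 0.19). SLC38A2, another glutamine carrier, fell from 347 ± 6.42 to 272 ± 18.2 CPM, and this call was lost without library 1 of the drug group (edgeR adjusted p = 0.0509). The cystine carrier SLC7A11 was not called at 182 ± 10.8 and 200.2 ± 27.1 CPM (edgeR adjusted p = 0.515), but was called higher with the offset for GC content and length (log2 change 0.38). Of 20 cytosolic tRNA synthetases 3 were called higher (15%, against 4.99% over all genes). The count was 0 without drug library 1 or radiation-alone library 3, and 1 without radiation-alone library 1.

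Lipid genes fell, and among them was the gene with the smallest adjusted p named here. SCD, the desaturase that makes monounsaturated fatty acids (ENSG00000099194, chromosome 10, 100347124 to 100364834), was at 884, 853 and 888 CPM with radiation alone and at 458, 434 and 452 CPM with CB-839. The drug group was 1.95-fold lower (log2 change -0.97 ± 0.04, edgeR adjusted p = 4.84e-14). Of 12 fatty acid synthesis genes 5 fell (41.7%, against 4.53% over all genes) and 0 rose (median -0.26). Of 23 tested cholesterol genes (24 listed) 6 fell (26.1%) and 0 rose (median -0.14). The second count was 3 lower and 1 higher without library 2 of the drug group. SREBF1, which encodes the sterol-regulated factor SREBP1, was at 148, 146 and 146 CPM and 99.95, 85.0 and 102 CPM (log2 change -0.61 ± 0.06, edgeR adjusted p = 1.04e-07). ACSL3, which activates long-chain fatty acids, fell by 0.73 and FADS1, a desaturase of polyunsaturated fatty acids, by 0.28 on the log2 scale. INSIG1, the sterol sensor that retains SREBP in the endoplasmic reticulum, went from 37.3 ± 3.62 to 23.5 ± 1.17 CPM. STARD4, a sterol carrier, had a log2 change of -0.68. The fall did not extend to every step: FASN, the fatty acid synthase, was at 1678 ± 19.5 and 1659 ± 105 CPM (edgeR adjusted p = 0.895). FASN was singled out after its values were seen, and it was called lower with the offset for GC content and length (log2 change -0.10).

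The sterol exporters ABCA1 and ABCG1, which are targets of the oxysterol receptors LXR, were among the largest falls. ABCA1 stood at 70.5, 68.0 and 74.8 CPM without the drug and at 25.0, 31.8 and 33.7 CPM with it, 2.36-fold lower (log2 change -1.24 ± 0.10, edgeR adjusted p = 2.77e-09). ABCG1 was at 2.84, 4.06 and 4.18 CPM and 1.28, 1.90 and 1.03 CPM (log2 change -1.39 ± 0.29, edgeR adjusted p = 0.00277). The groups did not overlap for either exporter, as the naming rule required. Drug effects of SCD, SREBF1, INSIG1 and ABCA1 in unirradiated WT cells were -0.94, -0.80, -0.74 and -1.04, and none of these 4 differences with radiation was called (edgeR adjusted p from 0.21 to 0.895). In irradiated E79Q cells the effect on ABCA1 was larger, at -1.89, and the difference was called (edgeR adjusted p = 0.0154).

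Several NRF2 targets of detoxification and iron storage rose, while the RNA of NRF2 itself fell. NFE2L2 was at 217, 219.9 and 222 CPM with radiation alone and at 170.0, 184 and 183 CPM with CB-839 (log2 change -0.29 ± 0.06, edgeR adjusted p = 0.00413). KEAP1 was not called (77.7 ± 1.40 and 84.2 ± 5.06 CPM). Of 23 tested NRF2 targets of detoxification, iron and transport 8 rose (34.8%, against 4.99% over all genes) and 0 fell (median 0.24). That count was 5 without library 1 of the drug group or library 1 or 2 of the radiation-alone group, and 6 higher and 1 lower without library 3 of the latter. NQO1, a quinone reductase, was at 294, 297 and 283 CPM and 414, 399 and 386 CPM (log2 change 0.45 ± 0.07, edgeR adjusted p = 4.95e-05). AKR1C1, an aldo-keto reductase, was at 11.5, 12.7 and 13.1 CPM and 20.9, 22.2 and 22.6 CPM (1.76-fold, log2 change 0.82 ± 0.10, edgeR adjusted p = 4.83e-06). FTH1, the heavy chain of ferritin, went from 545 ± 20.4 to 719 ± 23.0 CPM, and OSGIN1, a growth inhibitor induced by oxidative stress, from 10.6 ± 1.36 to 16.0 ± 0.481 CPM. For all 4 of these genes the drug libraries lay above the radiation-alone libraries. AKR1C1 and its near copies such as AKR1C2 can share reads, so the split of counts between them is uncertain.

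Of 11 tested NRF2 targets of the glutathione and thioredoxin systems (12 listed) 1 was called higher (9.09%, against 4.99% over all genes). This was SRXN1, which repairs peroxiredoxins (15.8 ± 0.505 to 20.1 ± 2.41 CPM, edgeR adjusted p = 0.0331). It was not called in 5 of the 6 fits that left out 1 of these libraries (edgeR adjusted p between 0.0642 and 0.128). With the offset for GC content and length 4 of the 11 were called higher and 0 lower. Among enzymes that supply NADPH, IDH1, the cytosolic isocitrate dehydrogenase, fell from 101 ± 2.42 to 62.5 ± 2.35 CPM (log2 change -0.69 ± 0.06, edgeR adjusted p = 2.77e-09). Of the 10 tested NADPH enzymes 2 fell (20%, against 4.53% over all genes) and 1 rose (10%, against 4.99%), the second fall being RPE. Only 1 fall was left in 5 of the 6 fits that left out 1 library.

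Genes of the mesenchymal state list moved in both directions, and 2 of the largest rises were those of TPM1 and CTGF. TPM1, an actin-binding tropomyosin, was at 60.2, 62.7 and 63.2 CPM with radiation alone and at 121, 129.6 and 123 CPM with CB-839, 2.01-fold higher (log2 change 1.01 ± 0.06, edgeR adjusted p = 3.94e-12). CTGF, a matrix protein and YAP target (now named CCN2), was at 29.2, 33.2 and 32.0 CPM and 64.4, 65.0 and 64.2 CPM (log2 change 1.04 ± 0.06, edgeR adjusted p = 9.28e-12). The groups did not overlap for either gene, as the naming rule required. Of 24 tested mesenchymal state genes (25 listed) 8 rose (33.3%, against 4.99% over all genes) and 5 fell (20.8%, against 4.53%). The median was 0.08. Several of those that rose encode secreted proteins of the matrix: TNC, a tenascin, went from 41.4 ± 2.11 to 66.9 ± 1.02 CPM, and TGFBI and THBS1 rose by 0.34 and 0.29 on the log2 scale. Those that fell include VIM, the intermediate filament vimentin, at 50.3, 49.0 and 51.0 CPM and 29.5, 26.0 and 24.2 CPM (log2 change -0.91 ± 0.08, edgeR adjusted p = 8.09e-09), and ZEB1, a repressor of epithelial genes, at 2.03, 1.63 and 1.97 CPM and 0.664, 0.687 and 0.879 CPM (edgeR adjusted p = 9.92e-04). The list therefore did not move as 1 block. Of 24 secreted proteases, protease inhibitors and growth factor binding proteins 3 rose (12.5%, against 4.99% over all genes) and 6 fell (25%, against 4.53%). MMP1, an interstitial collagenase, fell from 659 ± 18.8 to 459.6 ± 7.32 CPM and TIMP3, a metalloproteinase inhibitor, from 154 ± 5.11 to 100.2 ± 2.29 CPM. MMP2, a gelatinase, rose from 76.9 ± 2.64 to 108 ± 7.82 CPM.

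The largest fall by the naming rule was that of ELF3, an epithelial transcription factor (ENSG00000163435, chromosome 1, 202007945 to 202017188). It was at 37.6, 39.7 and 37.8 CPM with radiation alone and at 13.7, 13.8 and 14.6 CPM with CB-839, 2.73-fold lower (log2 change -1.45 ± 0.09, edgeR adjusted p = 1.41e-11). SCNN1A, a subunit of the epithelial sodium channel, was at 16.0, 15.9 and 15.7 CPM and 7.30, 6.29 and 6.62 CPM, and DIO2, which activates thyroid hormone, at 75.3, 63.6 and 73.5 CPM and 27.9, 36.0 and 35.3 CPM. Each was lower in every drug library, as the naming rule required of the largest falls. The other large falls were LOXL4 (-1.39), BTBD8 (-1.24), RLBP1 (-1.23), TNFSF9 (-1.12), SLC16A5 (-1.11) and UACA (-1.06), with log2 changes in parentheses. The largest rises beside those already named were KRT81 (1.19), a hair keratin, OVOL1 (1.19), COL6A3 (1.18), PLPP4 (1.15), DLX2 (1.12), HOXC13 (1.11), ACKR3 (1.06), a scavenging chemokine receptor, CYP2B6 (1.04) and PPP1R14C (1.01). Of these, HOXC13 lost its call without library 3 of the radiation-alone group (edgeR adjusted p = 0.0544). Of 18 tested squamous differentiation genes (32 listed) 4 rose (22.2%, against 4.99% over all genes) and 3 fell (16.7%, against 4.53%). The median was -0.07. Only 1 was called lower without library 1 or 2 of the drug group or library 2 or 3 of the radiation-alone group, and 2 were called higher without library 3 of the latter. KLK5, a kallikrein protease of keratinocytes, rose from 92.5 ± 4.77 to 132 ± 12.1 CPM.

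**Figure D2:**
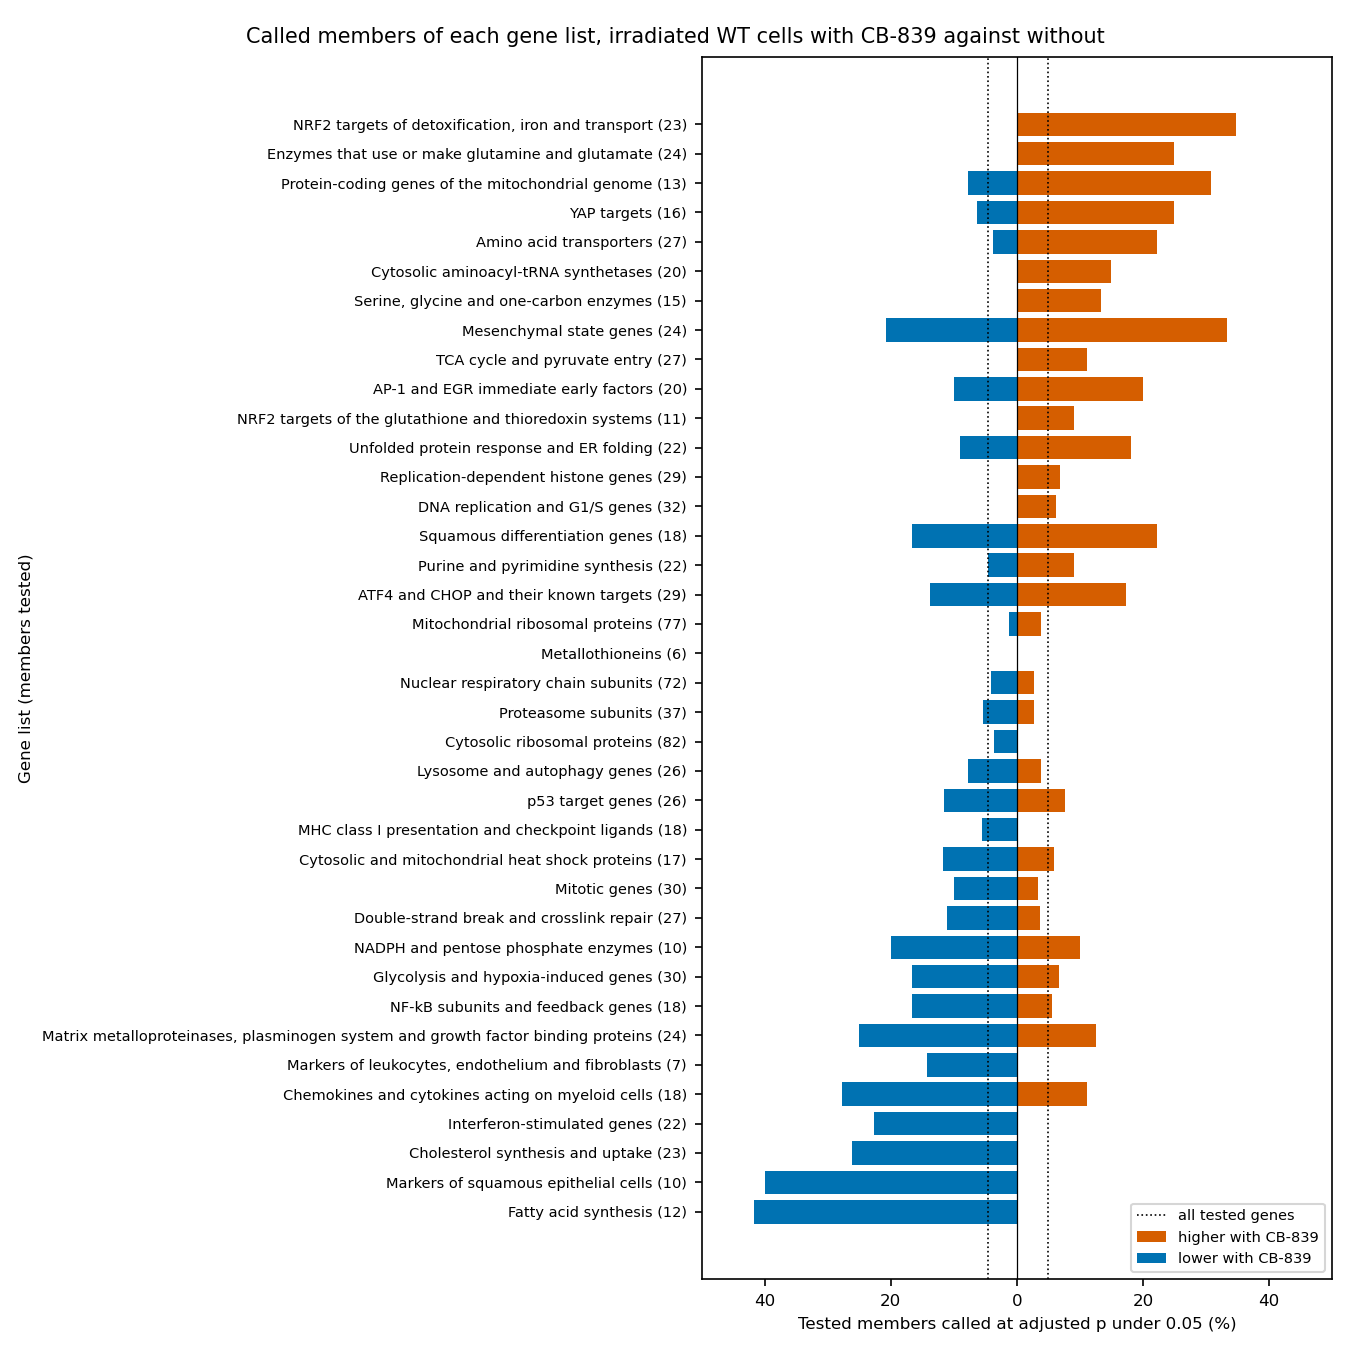
Percentage of tested members of each gene list that were called higher (right) or lower (left) with CB-839 in irradiated WT cells; the number tested is in parentheses and dotted lines mark 4.99% higher and 4.53% lower over all tested genes. Fatty acid, cholesterol and interferon lists reach only to the left and the glutamine and NRF2 detoxification lists only to the right.

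Interferon-stimulated genes fell at the IFIT cluster. IFIT2, which binds viral RNA, was at 26.8, 24.8 and 25.5 CPM without the drug and at 10.7, 13.6 and 10.0 CPM with it, 2.25-fold lower (log2 change -1.17 ± 0.13, edgeR adjusted p = 1.49e-06). IFIT1 was at 7.24, 8.03 and 8.25 CPM and 3.41, 4.44 and 4.39 CPM, and IFIT3 at 14.8, 12.5 and 12.4 CPM and 7.20, 7.77 and 7.96 CPM, with log2 changes of -0.94 and -0.80. All 3 genes were lower in every drug library, which the naming rule required for IFIT2. The promoters shown for IFIT1 and IFIT3 each hold 2 matches to the interferon motif, but only promoters with a match were shown. Another RefSeq start of IFIT3, not shown, holds 2 matches as well. For IFIT2 no RefSeq promoter was found. IRF1, a transcription factor induced by interferon, went from 39.5 ± 2.60 to 29.5 ± 2.27 CPM (edgeR adjusted p = 0.00243). In all, 5 of 22 tested interferon genes (28 listed) fell (22.7%, against 4.53% over all genes) and 0 rose (median -0.19). Most of the list was not called.

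Of 18 tested cytokines that act on myeloid cells (24 listed) 2 rose (11.1%, against 4.99% over all genes) and 5 fell (27.8%, against 4.53%), with a median of -0.13. Only 1 was called lower without library 1 or 3 of the drug group or library 3 of the radiation-alone group, and 2 without library 1 or 2 of the latter. CXCL2, a neutrophil chemokine, was at 9.47, 10.1 and 7.59 CPM and 5.31, 6.50 and 4.65 CPM (log2 change -0.73 ± 0.15, edgeR adjusted p = 0.00308) and was called in each of those fits. IL11 and LIF, both of the IL6 family, rose from 8.71 ± 0.279 to 12.9 ± 1.57 CPM and from 60.6 ± 2.19 to 77.6 ± 3.79 CPM. CXCL1 (71.6 ± 4.90 and 62.7 ± 6.12 CPM) and CXCL8 (19.3 ± 1.08 and 21.9 ± 1.504 CPM), which also attract neutrophils, were not called, although CXCL8 was called higher with the offset for GC content and length (log2 change 0.42). CD274, which encodes PD-L1, was at 16.9 ± 1.45 and 18.6 ± 1.92 CPM and was not called (edgeR adjusted p = 0.47).

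Among genes of growth control and DNA damage, CDKN1A, the gene for the cyclin-dependent kinase inhibitor p21, was at 89.3, 91.6 and 94.0 CPM with radiation alone and at 93.0, 89.9 and 84.0 CPM with CB-839, and the groups overlapped. Of 26 tested p53 targets (27 listed) 2 rose and 3 fell (11.5% lower, against 4.53% over all genes), and 0 rose and 2 fell without library 3 of the radiation-alone group. Of 30 mitotic genes 1 rose and 3 fell (10.0% lower), and of 27 tested repair genes (29 listed) 1 rose and 3 fell (11.1% lower). The lower counts were 7 and 5 when only the 2 groups were fitted, and 8 and 6 without the filter on low counts. CENPE, a kinetochore motor, was at 61.8, 53.3 and 70.4 CPM and 23.5, 37.9 and 36.1 CPM (log2 change -0.93 ± 0.18, edgeR adjusted p = 0.00171) and BRCA2, a recombination repair gene, went from 59.1 ± 5.67 to 36.1 ± 7.69 CPM. For both genes the lowest value was in library 1 of the drug group, and both have a low GC content, 35.5% for CENPE and 36.3% for BRCA2. With the offset for GC content and length both were called lower (log2 change -0.68 and -0.47), and 5 mitotic and 3 repair genes were. In that fit 3 mitotic genes and 1 repair gene were called higher. The median log2 change of the mitotic list was 0.006 there, against -0.05 without the offset. With library 1 of the drug group left out, 0 repair genes and 1 mitotic gene were called lower, BRCA2 was not called (edgeR adjusted p = 0.0759) and CENPE was. Without library 3 of the radiation-alone group 0 repair genes and 1 mitotic gene were called lower as well. Of the 32 replication and G1/S genes 2 rose, of 82 tested cytosolic ribosomal proteins 3 fell and of 72 tested nuclear respiratory chain subunits 2 rose and 3 fell, each under the 9.53% called over all genes. The ribosomal count was 0 without library 1 of either group or library 3 of the drug group, and the respiratory chain count was 0 without library 1 of the radiation-alone group. Protein-coding genes of the mitochondrial genome were called in 5 of 13 cases. Of these 4 were higher (30.8%, against 4.99% over all genes) and 1 lower (7.69%, against 4.53%). The share of all counts from that genome was 2.81%, 2.64% and 2.98% with radiation alone and 3.09%, 3.04% and 3.11% with CB-839, higher in every drug library, and its part in these calls was not tested.

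The ATF4 and CHOP list gave no common direction in this comparison. Of 29 tested members (31 listed) 5 were called higher (17.2%, against 4.99% over all genes) and 4 lower (13.8%, against 4.53%). The median was 0.14. Without library 1 or 3 of the radiation-alone group 3 were called higher. Without library 1 of that group or library 3 of the drug group 2 were called lower. ATF4 was at 269.6, 266 and 253 CPM with radiation alone and at 247, 235 and 222 CPM with CB-839 (log2 change -0.16 ± 0.06, edgeR adjusted p = 0.0859), and it was called lower with the offset for GC content and length (log2 change -0.22). DDIT3, which encodes CHOP, and ASNS, the asparagine synthetase that uses glutamine, were not called either. TRIB3, a pseudokinase that restrains ATF4, rose from 67.3 ± 1.54 to 83.7 ± 3.56 CPM (edgeR adjusted p = 0.004), and GDF15, a secreted stress factor, fell from 19.96 ± 1.205 to 13.4 ± 0.794 CPM (edgeR adjusted p = 6.81e-04). Thus a target that rose and a target that fell stood in the same list, beside PHGDH and PSAT1, which belong to it as well.

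The drug effect on the same list differed between irradiated and unirradiated WT cells. The time of RNA collection is not stated for unirradiated cells, so radiation and time since the start of the drug cannot be told apart. Nor can a difference in vehicle, since none is stated for the untreated cells. In unirradiated WT cells CB-839 lowered 22 of the 29 tested members and raised 1 (8.44% and 6.35% over all genes), with a median log2 change of -0.91. The difference between the drug effects in irradiated and unirradiated WT cells was called higher for 21 of the 29 members and lower for 0, against 2.75% and 1.27% over all genes. CHAC1, which degrades glutathione, was at 18.4, 17.7 and 18.7 CPM in untreated WT cells and at 2.60, 4.80 and 4.50 CPM with CB-839 alone. With radiation alone it was at 13.2, 14.2 and 11.4 CPM and with both at 19.6, 16.6 and 14.3 CPM. The drug thus lowered CHAC1 in unirradiated cells (log2 change -2.20) and gave an uncalled 0.38 in irradiated ones, a difference of 2.58 ± 0.21 (edgeR adjusted p = 7.01e-09). ATF4 was at 359, 400.3 and 392 CPM in untreated cells and at 181, 185 and 185 CPM with CB-839 alone, and its drug effect differed by 0.90 ± 0.09 (edgeR adjusted p = 6.57e-08). The levels with radiation, with or without the drug, lay between those 2 groups. DDIT4, an inhibitor of mTORC1, showed another order: 104, 108 and 111 CPM untreated, 21.6, 20.3 and 22.8 CPM with CB-839 alone, 29.5, 26.8 and 25.4 CPM with radiation alone and 22.4, 20.4 and 18.8 CPM with both. Both irradiated groups were near the level of CB-839 alone, and the drug effect differed by 1.91 ± 0.13 (edgeR adjusted p = 3.58e-10).

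**Figure D3:**
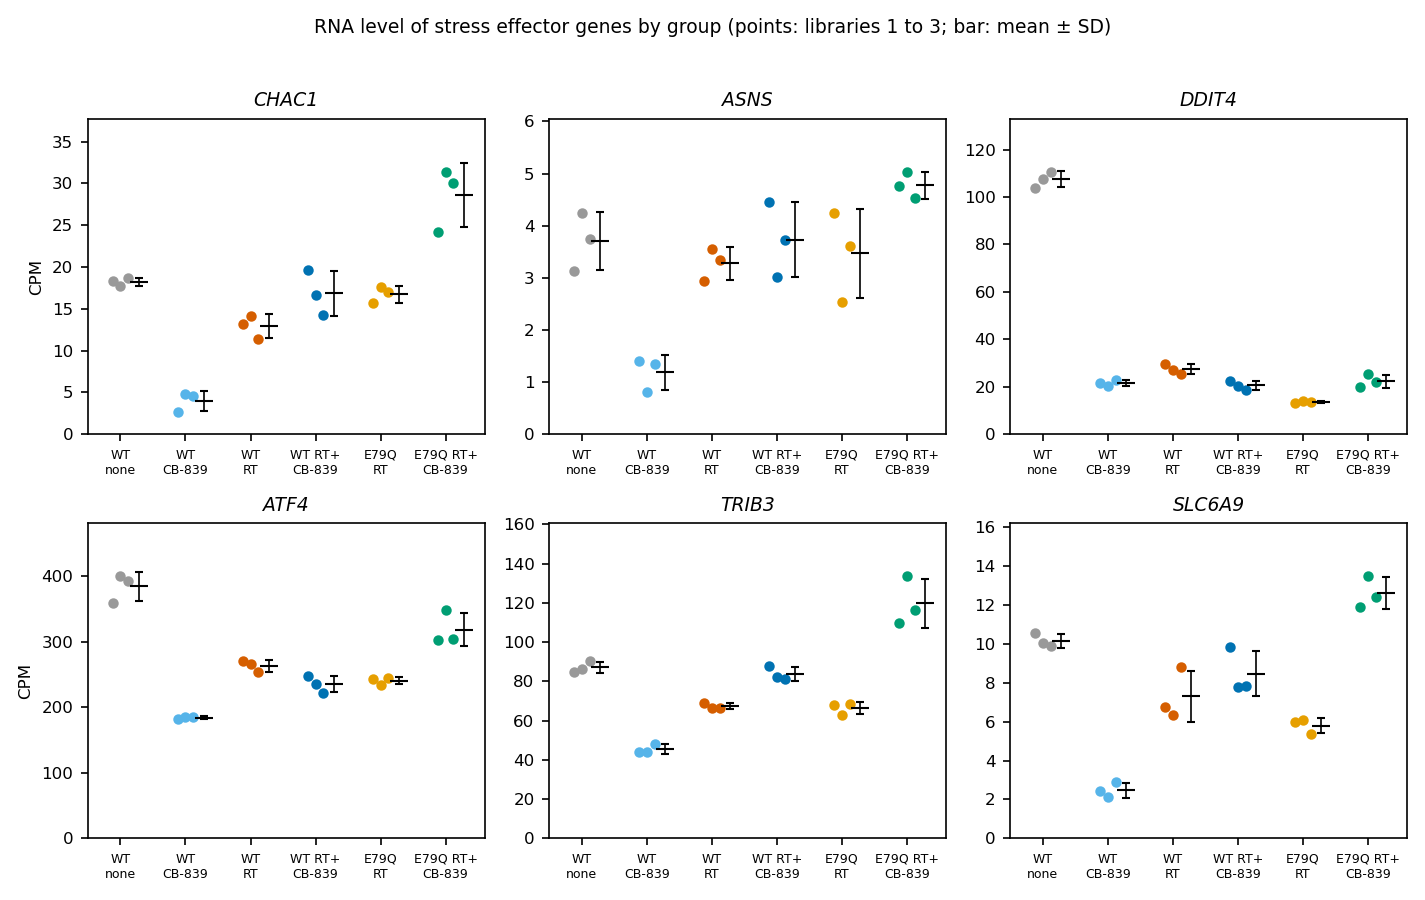
RNA level in CPM (linear axis from 0) of CHAC1, ASNS, DDIT4, ATF4, TRIB3 and SLC6A9 in 4 WT and 2 E79Q groups; points are libraries and the bar is the mean ± SD, n = 3. All 6 genes are lower with CB-839 alone than in untreated WT cells, and the gap between the 2 irradiated WT groups is smaller.

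**Figure D4:**
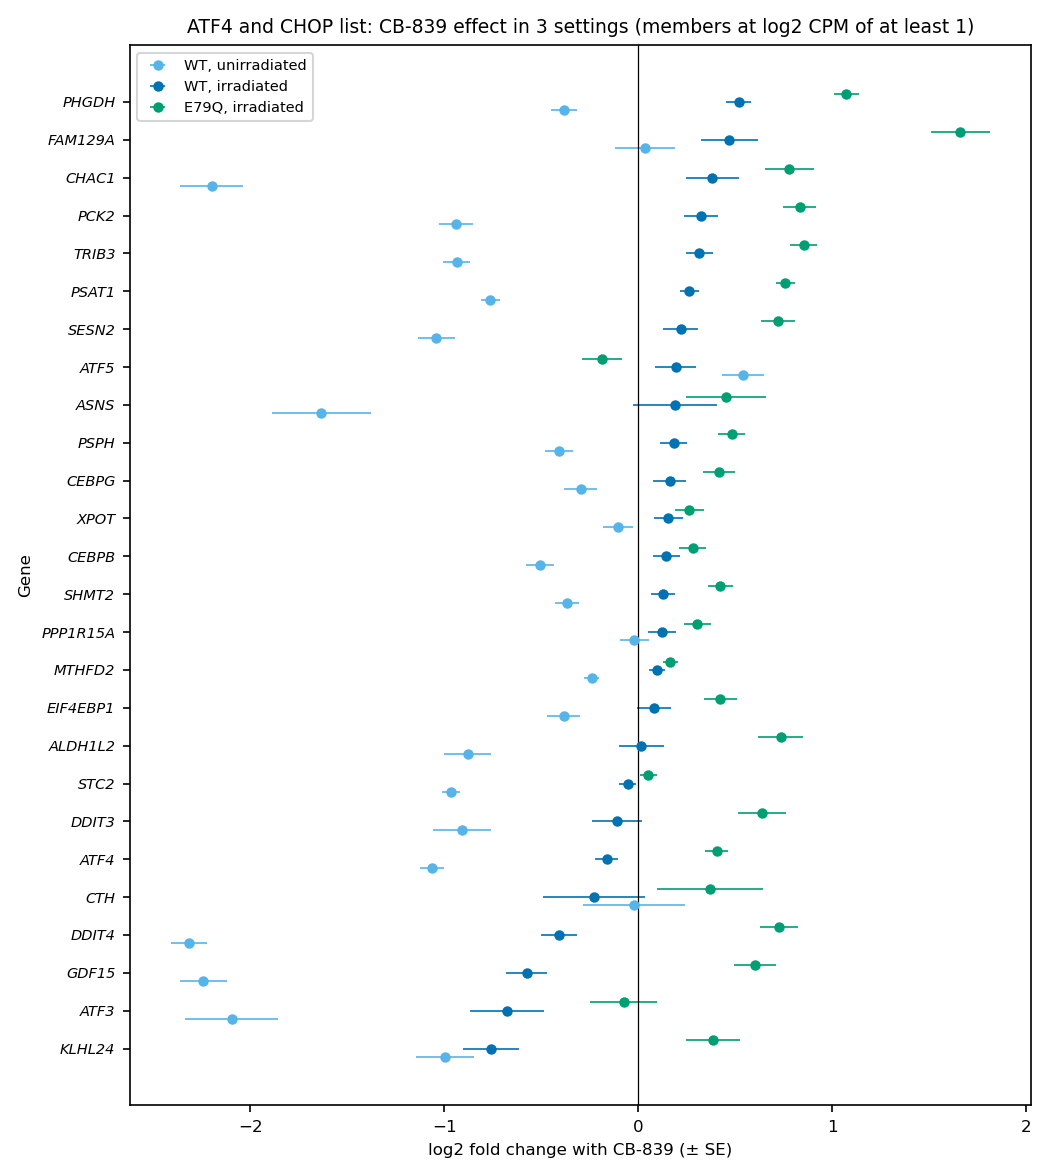
Log2 fold change with CB-839 (± SE) of 26 ATF4 and CHOP list members with a mean log2 CPM of at least 1, in unirradiated WT, irradiated WT and irradiated E79Q cells. Irradiated WT values lie around 0, most unirradiated values to the left and most E79Q values to the right.

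Further stress genes had differences in the same direction, SLC6A9 and BBC3 among the 5 highest of all by the naming rule. The differences were 2.26 for SLC6A9, a glycine carrier, 1.84 for BBC3, the pro-apoptotic PUMA, 1.82 for ASNS, 1.67 for GDF15, 1.42 for the stress factor ATF3, 1.25 for TRIB3 and 0.80 for DDIT3 on the log2 scale. Serine, glycine and one-carbon enzymes differed in 8 of 15 cases, all higher (53.3%, against 2.75% over all genes). Among them were PSAT1 (1.03) and PHGDH (0.90). PHGDH was at 306, 301 and 289.9 CPM untreated and at 222, 222 and 245 CPM with CB-839 alone, so the drug lowered it without radiation and raised it with radiation. Amino acid transporters differed in 7 of 27 cases, all higher (25.9%), including SLC1A5 (0.81), SLC7A5 (0.62), SLC3A2 (0.61) and SLC1A4 (1.37). The unfolded protein response list differed in 8 of 22 cases, all higher (36.4%). That count was 4 without library 3 of the radiation-alone group or library 1 of the drug group. It was 5 without library 2 of untreated cells or library 2 of CB-839 alone. Within irradiated WT cells, 4 of the 22 were called higher with CB-839 (18.2%, against 4.99% over all genes) and 2 lower (9.09%, against 4.53%). In fits that left out 1 library, 1 to 5 were higher and 1 or 2 lower. HSPA5, the main chaperone of the endoplasmic reticulum and 1 of those called lower, fell from 1147 ± 6.93 to 997 ± 27.4 CPM in irradiated cells. Its drug effect of -0.78 in unirradiated cells was larger, a difference of 0.58 (edgeR adjusted p = 1.81e-07).

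In all, the drug effect differed between irradiated and unirradiated WT cells for 641 genes (4.02%), 439 of them higher and 202 lower. Higher differences made up 68.5% of these calls, 56.7% with the offset for GC content and length, 50.2% when only the 4 groups were fitted and 43.6% without the filter on low counts. Of the 1520 genes called in irradiated WT cells, 564 were called in the same direction in unirradiated WT cells (37.1% of the former and 23.9% of the latter) and 38 in the opposite one. Over all tested genes 14.8% were called in unirradiated WT cells, and the 2 drug effects correlated at r = 0.235. NQO1 and FTH1 had higher drug effects with radiation, by 0.43 and 0.63. CDKN1A, which overlapped between the irradiated groups, had fallen in unirradiated cells (-1.01), a difference of 0.97 (edgeR adjusted p = 4.13e-06). In the other direction, MMP1 rose with CB-839 in unirradiated cells, from 198 ± 11.2 to 237 ± 8.04 CPM, and fell in irradiated ones, a difference of -0.78 ± 0.08 (edgeR adjusted p = 7.96e-08). TPM1 and CTGF rose in both settings, by less with radiation (-0.35 and -0.37). The 5 lowest differences were those of NEXN (-1.45), RAB30 (-1.30), DOCK4 (-1.23), ATP5ME (-1.22) and COL8A1 (-1.16), with COL8A1 no longer called in 9 of the 12 fits that left out 1 library (edgeR adjusted p up to 0.123) or with the replicate number as a block. Each drug effect was taken between groups of 1 radiation state. Whether the unirradiated libraries were prepared together with the irradiated ones is not stated, nor is it stated for the groups within 1 radiation state. Such batches, the use of vehicle, the time of RNA collection and the effect of radiation cannot be told apart here.

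In irradiated E79Q cells the drug effect shared direction with that in WT cells for 1404 of the 1520 genes called in WT cells (92.4%), and 993 were called in the same direction (65.3% of the WT calls and 24.0% of the 4141 E79Q calls). Over all tested genes 26% were called in E79Q cells, and the drug effects of the 2 genotypes correlated at r = 0.364. Genes called higher in E79Q cells had a median GC content of 55.8% and those called lower 42.5%. The part of GC content in this overlap was not tested. The difference between the 2 drug effects was called for 305 genes (1.91%), 201 higher and 104 lower in E79Q cells. The 3 E79Q libraries with radiation and CB-839 deviated from their group along GC content at r = -0.390, 0.492 and -0.168 across genes, and with the offset for GC content and length 840 differences were called. The 5 lowest and the 5 highest differences named here were each called in that fit too. Aldo-keto reductases were among the lowest differences. AKR1C1 was at 131, 147 and 134 CPM in irradiated E79Q cells and at 90.8, 98.7 and 91.4 CPM with CB-839, so it fell there (-0.55) and rose in WT cells (0.82), a difference of -1.37 ± 0.13 (edgeR adjusted p = 3.58e-07). Its level with radiation alone was higher in E79Q than in WT cells. AKR1C2 differed by -1.33 and ABCC2, an efflux pump for conjugates, by -1.26. Of the 23 NRF2 detoxification targets 4 differed, all lower in E79Q cells (0.652% lower over all genes). With the offset for GC content and length 5 were lower and 3 higher. Without library 1 of E79Q cells with radiation and CB-839, 5 were lower and 2 higher. NQO1 had drug effects of 0.45 and 0.42 (difference -0.03 ± 0.09).

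**Figure D5:**
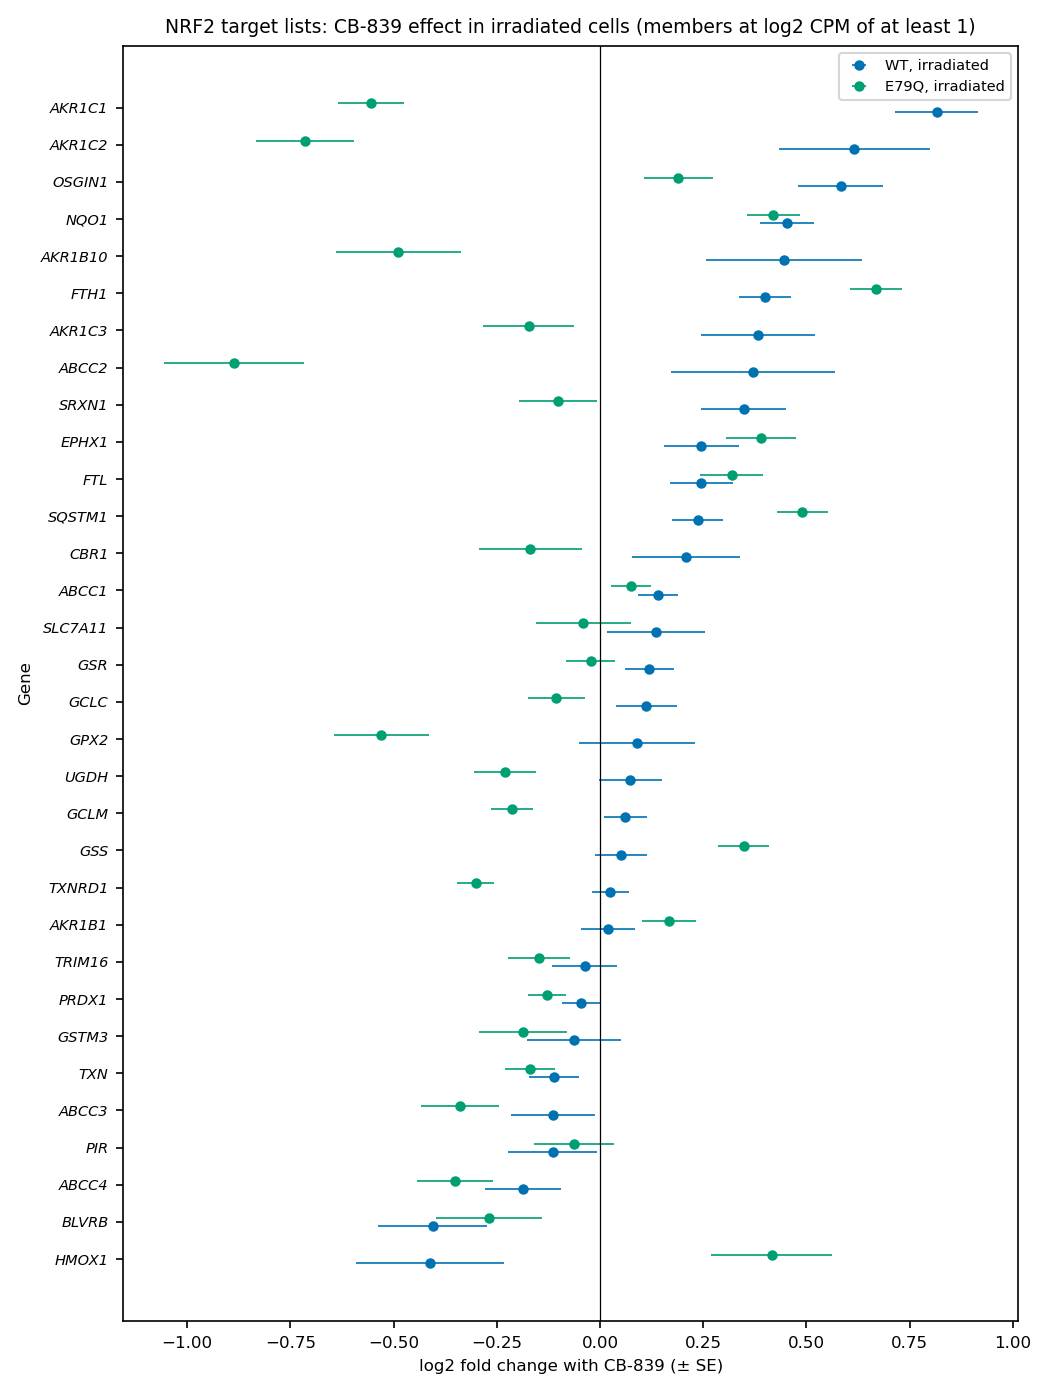
Log2 fold change with CB-839 (± SE) of 32 NRF2 target genes with a mean log2 CPM of at least 1 in irradiated WT and irradiated E79Q cells. AKR1C1, AKR1C2 and ABCC2 lie right of 0 in WT cells and left of 0 in E79Q cells, while NQO1 and FTH1 lie right of 0 in both.

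Other differences with genotype concerned matrix, epithelial and stress genes. CTGF was at 113, 112 and 119 CPM in irradiated E79Q cells and at 109, 115 and 106 CPM with CB-839, with no call, against the rise in WT cells (difference -1.10 ± 0.08, edgeR adjusted p = 9.70e-09). ACKR3 differed by -0.89, PTHLH, which encodes parathyroid hormone related protein, by -1.23, RGS4, a brake on G protein signals, by -1.83 and VIM, which fell further in E79Q cells, by -0.55. ELF3 fell less in E79Q cells (difference 0.64). Of the ATF4 and CHOP list 12 of 29 members had a higher drug effect in E79Q cells and 0 a lower one (1.26% and 0.652% over all genes); the count was 8 without library 1 of E79Q cells with radiation alone and 8 to 14 over all such fits. ATF4 was at 243, 234 and 244 CPM and 302, 348 and 304 CPM there, rising where it was not called in WT cells (difference 0.57 ± 0.08, edgeR adjusted p = 2.57e-04). GDF15 and DDIT4 rose in E79Q cells and fell in WT cells, with differences of 1.18 and 1.13; the fall of DDIT4 in WT cells was not called without library 1 of the radiation-alone group (edgeR adjusted p = 0.0622) or library 3 of the drug group (edgeR adjusted p = 0.0535). The 5 highest differences were those of MYH14 (2.05), TMEM125 (1.69), DEPP1 (1.62), NTN1 (1.59) and C1orf210 (1.58), and of these MYH14, TMEM125, NTN1 and C1orf210 lost their call in 1 or more fits that left out 1 library.

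The 6 libraries held 16480586 to 21144628 counts each, and their log2 CPM values correlated at 0.989 to 0.992 within a group and at 0.985 to 0.989 between the groups. Markers of squamous epithelium were present: the summed level of 10 markers was 2784 to 2945 CPM with radiation alone and 2767 to 2873 CPM with CB-839, led by KRT5. Of these 10 markers 4 were called lower (40%, against 4.53% over all genes) and 0 higher. In the fits that left out 1 library 0 to 2 were called lower, with 0 without library 1 of the drug group. Of 15 listed markers of leukocytes, endothelium and fibroblasts 7 were tested, with a sum of 9.09 to 13.6 CPM and 7.68 to 8.58 CPM. The monocyte marker CD14 fell from 44, 35 and 31 counts to 5, 15 and 13 counts, a call lost without library 1 of the drug group (edgeR adjusted p = 0.0592), and its part in the results was not tested. MS4A1 and DCN had 0 counts in all 6 libraries. In RNA from whole cultures, fewer cells that express a gene and less RNA per cell cannot be told apart.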

How the data were processed

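RNA sequencing covered 24 libraries in 8 groups of 3. The authors deposited 1 table of raw counts, whole numbers of reads for each Ensembl gene. The submitters' processing notes list STAR, HTSeq and GRCh38, without versions; strand setting and annotation are not stated there. All 58735 IDs occur in GENCODE 29. The series text speaks of 12 irradiated samples, whereas the labels hold 24 samples with and without radiation.

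One edgeR 4.0.16 model (R 4.3.3) held all 24 libraries, with a mean for every group, TMM scaling and the edgeR expression filter, which kept 15956 of the 34983 genes that had reads. It left 16 residual degrees of freedom and a common biological variation of 7.19%. Quasi-likelihood p-values were adjusted by Benjamini-Hochberg over the kept genes. Exact tests of 3 libraries against 3 cannot fall below p = 0.1. On data simulated for the irradiated WT comparison (15956 genes), 53.7%, 65.7% and 84.8% of changes of 1.5, 2 and 4-fold were recovered. Of the calls there, 4.9% were false. The simulated libraries held no GC trend, unlike the real ones, so recovery in the real data may differ.

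The members and the 38 lists were chosen with earlier results of these data known. Named genes are the 12 largest rises and falls among called protein-coding genes without overlap and with mean log2 CPM of at least 1, the 5 largest differences each way, up to 4 called members per list and direction (or the 2 most abundant), and chosen pathway genes. Alternatives used DESeq2 1.42.0, limma 3.58.1, RLE scaling, other filters, only the groups compared, a 1.5-fold test, a replicate block, GC and length offsets, and leave-one-out fits. Promoters come from RefSeq (GRCh38.p14). Results for some genes are not reported here.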

Additional observations from a re-analysis of the deposited data

Results flagged for a closer look

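Drug effects that differed between groups by the edgeR test of the difference itself stand here for the genes named with such a difference, as log2 differences in parentheses. Higher means more positive or less negative, and lower the reverse, so a higher effect can be a smaller fall. In irradiated WT cells DDIT4, GDF15, ATF3 and HSPA5 were called lower with CB-839. The CB-839 effect was higher in irradiated than in unirradiated WT cells for CHAC1 (2.58), SLC6A9 (2.26), DDIT4 (1.91), BBC3 (1.84), ASNS (1.82), GDF15 (1.67), ATF3 (1.42), ATF4 (0.90), DDIT3 (0.80), TRIB3 (1.25), PHGDH (0.90), PSAT1 (1.03), SLC7A5 (0.62), SLC3A2 (0.61), SLC1A5 (0.81), SLC1A4 (1.37), CDKN1A (0.97), NQO1 (0.43), FTH1 (0.63) and HSPA5 (0.58). It was lower in irradiated WT cells for MMP1 (-0.78), NEXN (-1.45), RAB30 (-1.30), DOCK4 (-1.23), ATP5ME (-1.22), COL8A1 (-1.16), TPM1 (-0.35) and CTGF (-0.37).

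The CB-839 effect was higher in irradiated E79Q than in irradiated WT cells for ELF3 (0.64), MYH14 (2.05), TMEM125 (1.69), DEPP1 (1.62), NTN1 (1.59), C1orf210 (1.58), GDF15 (1.18), DDIT4 (1.13) and ATF4 (0.57). It was lower in irradiated E79Q cells for RGS4 (-1.83), AKR1C1 (-1.37), AKR1C2 (-1.33), ABCC2 (-1.26), PTHLH (-1.23), CTGF (-1.10), ACKR3 (-0.89), ABCA1 (-0.65) and VIM (-0.55). No group has 4 or more libraries, so single libraries were not tested as outliers.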

How the results depend on the processing

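The counts of called genes depended on the setting as follows, for the drug effect in irradiated WT cells (1520), its difference with radiation (641) and its difference with genotype (305). A test against a 1.5-fold change left 13, 18 and 4 genes. GC and length offsets gave 1137 and 840 for the differences, and with the replicate block added 1050 and 795. Without the filter on low counts the difference with radiation had 997 calls, and fits of the compared groups alone gave 1417 and 132 for the differences. Leaving out 1 library gave 638 to 1477, 363 to 718 and 145 to 545 calls. For the difference with radiation the count moved over 1.5 times without library 1 of untreated cells (372), library 2 of CB-839 alone (363), library 3 of radiation alone (387) or library 1 of radiation plus CB-839 (367). For the difference with genotype this held without library 1 or 2 of WT radiation alone (150 and 157), library 2 or 3 of WT radiation plus CB-839 (182 and 179), library 1 or 3 of E79Q radiation alone (145 and 165), and library 1, 2 or 3 of E79Q radiation plus CB-839 (545, 468 and 190). The other alternatives kept all 3 counts within 1.5 times. The replicate block alone gave 1250, 510 and 243 calls. Whether same-numbered libraries were cultured or prepared together is not stated. Between the irradiated WT groups their deviations correlated at 0.05, -0.04 and 0.03, and 4 of 24 libraries correlated best with their own number. So few libraries cannot settle the question. List counts without library 1 of the drug group were an alternative chosen after seeing the data. No named gene changed direction while called. Depth was 16480586 to 21144628 counts per library in the irradiated WT groups, and its part in lost calls was not tested.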
